A study of Homo sapiens with 20 samples.

Results

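The mRNAs described here encode subunits of oxidative phosphorylation complexes that are specified by nuclear genes. They were chosen by gene family and are 58 of the 19962 rows of the gene count table: 10 genes of complex IV, 15 of complex V, 9 of complex III and 24 of complex I. All 58 had counts. Those described most are COX8A (ENSG00000176340), COX7C (ENSG00000127184), COX6A1 (ENSG00000111775), ATP5F1A (ENSG00000152234), ATP5F1B (ENSG00000110955), ATP5MC2 (ENSG00000135390), ATP5PF (ENSG00000154723), UQCRH (ENSG00000173660), NDUFA4 (ENSG00000189043) and NDUFS3 (ENSG00000213619). The table gives Ensembl identifiers only, so the symbols were recorded for each identifier by hand and checked by position. The check asked which identifier's counts over the 15 anti-IGF2BP3 libraries best followed the reads in clusters at the RefSeq gene of that symbol. Of the 46 members with clusters, 24 ranked first among the members, including all 13 with at least 400 reads in clusters. The other 22 did not rank first, and 12 members had no clusters. ATP5F1E, UQCRB, UQCRC2 and NDUFB9 are the members called below whose symbols this check did not bear out.

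Oxidative phosphorylation takes place in the inner mitochondrial membrane. Complexes I and III pass electrons from NADH and ubiquinol to cytochrome c, complex IV passes them to oxygen, and complex V (ATP synthase) uses the proton gradient that results to make ATP. Most of their subunits are made in the cytosol from nuclear mRNAs and imported, while a core set is encoded by mitochondrial DNA. IGF2BP3 is a cytoplasmic RNA-binding protein of the insulin-like growth factor 2 mRNA-binding family, known for binding mRNAs and affecting their stability and translation.

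The study mapped RNA bound by IGF2BP3 in HCT116, a human colorectal carcinoma line, by PAR-CLIP, in which 4-thiouridine in RNA is crosslinked to protein at 365 nm and the crosslinked sites read as T-to-C conversions. All cells carried Tet-OsTIR1-PURO and received 100 µM 4-thiouridine for 15 h. There were 3 anti-IGF2BP3 libraries of each of 5 groups: PBS for 2 h, arsenite at 250 µM for 2 h, DMSO for 4 h, and tunicamycin (TM) at 5 µg/mL for 1 h or 4 h. Each condition had 1 IgG library, 5 in all. Tunicamycin blocks N-glycosylation and causes endoplasmic reticulum stress, and arsenite causes oxidative stress. The titles name arsenite, while the treatment text names arsenate. That text gives tunicamycin for 4 h only, and the 1 h group was taken from the sample labels. The labels do not say whether replicates came from separate cultures, so p-values measure only the spread between these libraries. Input RNA was not analysed here, so more bound RNA per transcript and more transcript cannot be told apart in any result below.

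The anti-IGF2BP3 libraries held 130478 to 1568406 counts, and the IgG libraries 5981 to 17503. PBS replicate 2 was the shallowest anti-IGF2BP3 library, at 130478. Of the 7 epithelial marker genes 6 had reads in clusters, and of 10 markers of blood, endothelial, stromal and muscle cells none had.

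Where clusters recurred, they lay at a few places in each transcript. The authors' clusters formed 192 regions in 46 members, of which 57 were seen in 1 library and 6 in all 15 libraries. Those 6 lay in ATP5F1B, COX6A1, COX8A, ATP5PB, NDUFA4 and ATP5F1A. Regions seen in at least 13 libraries numbered 15, in 11 members. Of the 18451 cluster reads in members, 49.6% fell in regions within 500 bases of the annotated gene end, and for 19 members the region with most reads lay there. The sequences of 13 of these recurrent regions are shown because clusters came back there in library after library. Each is 30 bases of the region's cluster with most reads, 5′ to 3′ on the RNA's strand, on build hg38, as the deposited cluster lists give it. Capitals mark CATA, CATC or CATT (the DNA letters of a motif known for IGF2BP proteins) and GGAC, which is known as a core of N6-methyladenosine sites. Regions are numbered along each gene from its start.
COX6A1 region 4, chr12:120440551-120440580, plus strand: cactacccgggcaccagGGACcacagcact
COX7C region 1, chr5:86618097-86618126, plus strand: ccgtaggagccactatgaggagggccctgg
COX7C region 2, chr5:86619438-86619467, plus strand: ttgtagtaagacaccaactgcttaaaacat
COX8A region 2, chr11:63976349-63976378, plus strand: acctgaccagccccaccggccCATCctggt
ATP5F1A region 13, chr18:46084169-46084198, minus strand: atactccttatgtacagaaatcacatgaaa
ATP5F1B region 12, chr12:56640032-56640061, minus strand: ctccacctctcgtatcatggatcccaacat
ATP5F1B region 13, chr12:56639140-56639169, minus strand: ggtCATAtggggaagctggtacccctgaag
ATP5F1B region 14, chr12:56638347-56638376, minus strand: attgaagaagctgtggcaaaagctgataag
ATP5PB region 9, chr1:111461119-111461148, plus strand: aagtttgtttCATAtagtgagagaacgaaa
ATP5MC3 region 4, chr2:175178097-175178126, minus strand: acttacactaagtttagattatcacaaaga
UQCRH region 2, chr1:46316567-46316596, plus strand: tttaacaacttgaaataaatgtgtGGACtt
NDUFA4 region 3, chr7:10933459-10933488, minus strand: caatgattaaatcaataaataactgaaact
NDUFA12 region 2, chr12:94971418-94971447, minus strand: acaagtaaagacaatgaagaacagttgaaa
Of the 13 windows, 3 held CATA, CATC or CATT, 2 held GGAC and 8 held neither. Windows of the same length were taken from the 364271 anti-IGF2BP3 clusters of at least 30 bases, leaving out shorter ones. Of these 40.5% held one of the first 3 words and 7.2% held GGAC, on the RNA's strand only. In the 980 member clusters among them the shares were 44.7% and 8.0%. A match describes the letters and does not show a bound site.

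The regions lay at different places in different genes. In COX6A1 and COX8A, subunits of cytochrome c oxidase, nearly every cluster read lay at the end of the gene: region 4 of COX6A1 ended 19 bases from it and region 2 of COX8A ended 8 bases from it. ATP5F1B, the catalytic beta subunit of the F1 head, had its main region 1 base from the gene end and 2 further recurrent regions upstream of it. That end also lies inside the annotated span of BAZ2A. In ATP5F1A, the alpha subunit, the recurrent region ended 3910 bases before the gene end, and in ATP5PB, a peripheral stalk subunit, 1313 bases before it. Exon and intron positions were not assigned, since no exon annotation was used here. The symbols of 2 genes have neighbours that share their span: ATP5MF overlaps ATP5MF-PTCD1, and NDUFV2, which had 263 cluster reads against 19 counts in the table, overlaps NDUFV2-AS1.

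The share of a gene's cluster reads in a recurrent region was lower under arsenite than under PBS, without overlap, for the main region of ATP5F1B, ATP5F1A, ATP5PB, ATP5MC3 and CYC1. Region 13 of ATP5F1B was higher without overlap, at 0.0% to 14.3% in PBS and 15.7% to 23.7% under arsenite. Regions of genes outside the members were not compared in this way. For ATP5F1B region 14 the share was 75.2%, 79.2% and 100.0% in the PBS libraries and 52.9%, 63.8% and 65.8% in the arsenite libraries. The groups did not overlap. DMSO libraries ran from 74.2% to 87.7%, those of TM 1 h from 75.7% to 100.0% and those of TM 4 h from 61.9% to 74.3%. For ATP5PB region 9 the share was 100.0% in every PBS library and between 38.9% and 84.1% under arsenite, with 87 and 201 cluster reads in the gene. For ATP5F1A region 13 it was between 64.7% and 100.0% in PBS and between 32.1% and 50.0% under arsenite. For region 4 of ATP5MC3, a c ring gene, it was between 72.2% and 100.0% in PBS, with 30 cluster reads in the gene, and between 16.2% and 46.2% under arsenite, with 130. For region 3 of CYC1, cytochrome c1 of complex III, it was 100.0% in the 2 PBS libraries with cluster reads there, and 42.9% and 68.4% in the 2 arsenite libraries with them. COX8A kept 100.0% in region 2 in all PBS, arsenite, DMSO and TM 1 h libraries. Clusters were called library by library and the arsenite libraries were deeper, with 414033 to 1098488 counts against 130478 to 423906 in PBS, so depth moved with these shares, and its part in them was not tested.

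**Figure D1:**
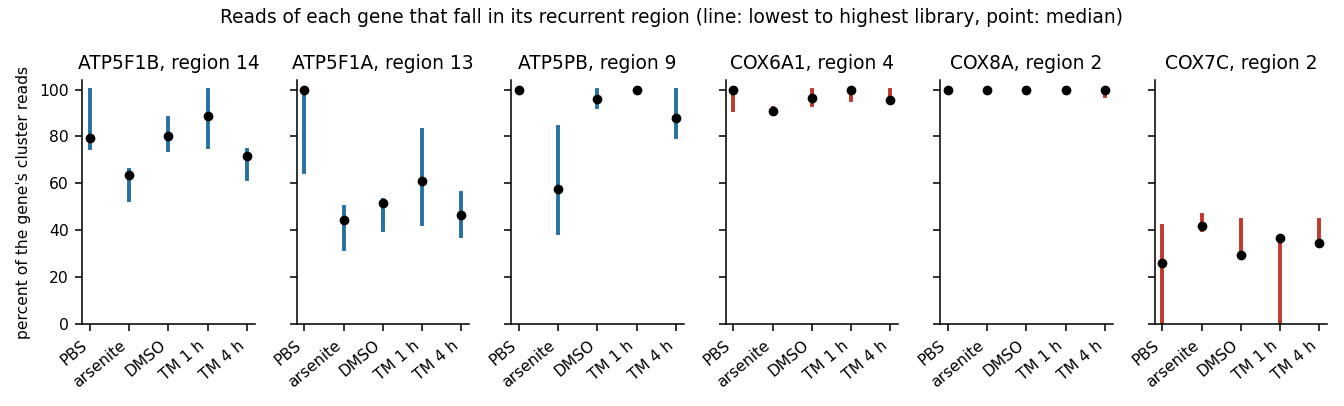
Percent of a gene's cluster reads that fall in one recurrent region, for 6 regions, with the 3 libraries of each group as a line from lowest to highest and the median as a point. The ATP5F1B, ATP5F1A and ATP5PB lines of arsenite lie below those of PBS, and COX8A stays at or near 100.0% in every group.

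Together the members took a small share of each library. Their summed share of all counts was 0.307% ± 0.010 with PBS and 0.269% ± 0.004 with arsenite. With DMSO it was 0.267% ± 0.017, with 1 h of tunicamycin 0.248% ± 0.009 and with 4 h 0.334% ± 0.019 (SD, n = 3 each). The 3 TM 4 h libraries (0.312% to 0.348%) lay above all DMSO and TM 1 h libraries, and the 3 arsenite libraries (0.265% to 0.272%) lay below all PBS libraries (0.295% to 0.313%). ATP5F1B alone held 13.2% of the 29421 member counts, and the 10 members with most counts held 56.0%. At the other end, 19 members had under 100 counts over the 15 libraries.

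The shares by complex are given next. Complex IV subunits held 0.076% ± 0.006 of counts in PBS and 0.049% ± 0.004 under arsenite, and 0.058% ± 0.003 in DMSO against 0.046% ± 0.008 after 1 h and 0.079% ± 0.009 after 4 h of tunicamycin (n = 3 each). Complex V held 0.123% ± 0.007 in PBS and 0.128% ± 0.008 under arsenite, ranges that overlap, and went from 0.111% ± 0.010 in DMSO to 0.138% ± 0.009 at TM 4 h. Complex III held 0.049% ± 0.008 in PBS and 0.037% ± 0.002 under arsenite, with ranges that meet at 0.0399%. It went from 0.047% ± 0.005 in DMSO to 0.057% ± 0.004 after 4 h of tunicamycin, with ranges that overlap (0.0436% to 0.0532% and 0.0525% to 0.0594%). Complex I held 0.059% ± 0.007 in PBS and 0.054% ± 0.002 under arsenite, ranges that overlap. In DMSO it held 0.0519% ± 0.0005, at TM 1 h 0.050% ± 0.002 and at TM 4 h 0.060% ± 0.003. Its TM 4 h libraries (0.0577% to 0.0638%) lay above those of DMSO (0.0513% to 0.0523%) and TM 1 h (0.0478% to 0.0512%). These are sums over members of unequal depth and carry no test.

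**Figure D2:**
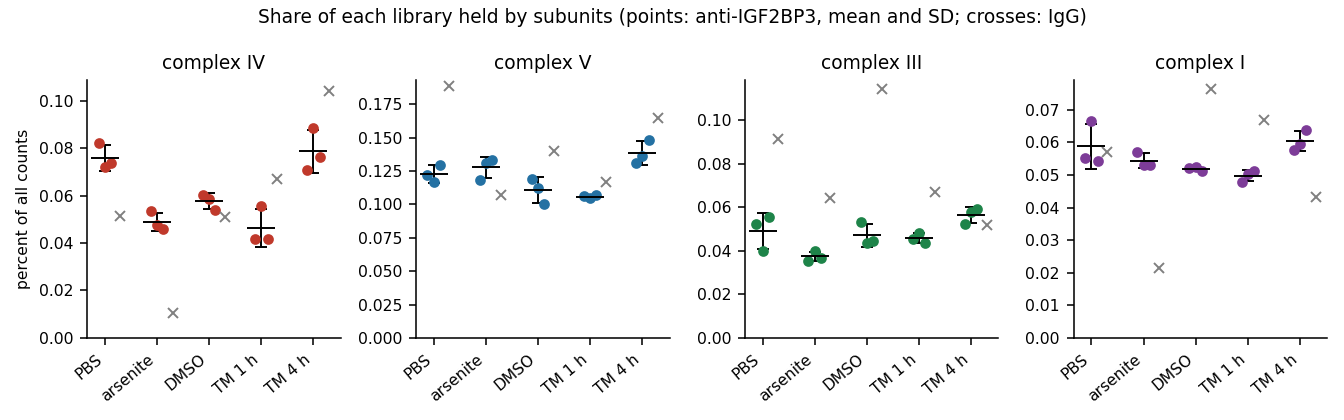
Percent of each library's counts held by the members of each complex, with anti-IGF2BP3 libraries as points, their mean and SD as bars, and IgG libraries as crosses. Complex IV is lower under arsenite than in PBS, and its TM 4 h libraries (0.0709% to 0.0887%) lie above those of DMSO and TM 1 h and overlap those of PBS (0.072% to 0.0823%), while complex V is at about the same share in PBS (0.123%) and arsenite (0.128%).

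The IgG libraries held the members at a like share of counts. With PBS it was 0.389% (exact 95% binomial interval 0.302% to 0.492%) and with arsenite 0.203% (0.122% to 0.317%). With DMSO it was 0.381% (0.258% to 0.544%), with tunicamycin for 1 h 0.318% (0.191% to 0.496%) and for 4 h 0.364% (0.262% to 0.492%). In that order these rest on 68, 19, 30, 19 and 42 counts, and the intervals cover counting error only. Of all 7022 genes tested by edgeR's quasi-likelihood test against IgG, scaled by library totals, 6 were higher with the anti-IGF2BP3 antibody, which is 0.0854%, and 86 were lower, which is 1.22%. The balance turned with the scaling: with TMM factors 522 genes were higher and 60 lower, and the median over all genes was 0.71 in place of 0.09. The members' median moved with it, from -0.013, with 15 of 31 above 0, to 0.60, with 24 of 31 above 0, so whether members lay above or below IgG depended on the scaling. Of 31 members tested none was higher and 1 was lower, and 3 had an unadjusted p under 0.05. The one was UQCRH, the hinge subunit of complex III, at a log2 difference of -2.00 ± 0.54 (SE, adjusted p = 0.023). Its 12 IgG counts were 7 in DMSO, 3 in PBS, 1 each at TM 1 h and TM 4 h and 0 under arsenite, and without the DMSO IgG library the difference was -0.95 (adjusted p = 0.67). ATP5MF and ATP5F1C had the next lowest adjusted p, 0.44 each, with 7 IgG counts apiece. The authors' IgG cluster lists held 1 cluster in members, in the arsenite IgG library.

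After 1 h of tunicamycin no member passed the threshold. Over all 8343 genes tested against DMSO 46 were called, which is 0.551%, and of 39 members tested 0 were (4 had an unadjusted p under 0.05, and DESeq2 also called 0). The other 19 members fell below the filter on low counts. The 39 had a median log2 fold change of -0.13, against 0.0020 over all genes. All 9 complex IV subunits tested lay below 0, with values from -0.62 to -0.08 and a median of -0.33, none of them past the threshold. Complexes III and V divided evenly, with 4 of 8 and 6 of 12 above 0, and in complex I 4 of 10 lay above 0.

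The 3 members with the lowest adjusted p at 1 h show the size of these values. COX7C, in CPM (counts relative to the scaled library size), was at 106.2, 142.9 and 136.6 in DMSO and at 68.8, 125.8 and 95.0 at TM 1 h, a log2 fold change of -0.42 ± 0.16 (adjusted p = 0.32). COX6A1 was at 201.5, 136.6 and 140.6 in DMSO and at 110.0, 143.5 and 110.2 at TM 1 h (-0.33 ± 0.15, adjusted p = 0.47). Both ranges overlap. NDUFB4, an accessory subunit of complex I, was at 8.2, 11.6 and 10.4 in DMSO and at 18.3, 30.9 and 17.1 at TM 1 h (1.00 ± 0.40, adjusted p = 0.36), with no overlap but few counts.

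After 4 h of tunicamycin 10 of the 39 members tested rose and none fell. Over all 8343 genes 233 rose, which is 2.79%, and 193 fell, which is 2.31%. Log2 fold changes were above 0 for 36 of 39 members, with a median of 0.30 against 0.0037 over all genes. The members that rose came from every complex: 3 of 9 in complex IV, 4 of 12 in complex V, 1 of 8 in complex III and 2 of 10 in complex I. The 3 below 0 were NDUFB2, NDUFS1 and ATP5MG, none past the threshold. With a filter of at least 50 mean counts 10.3% of all genes were called, and 8 of 17 members were.

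COX7C had the lowest adjusted p. Its 3 TM 4 h libraries stood at 196.3, 266.9 and 231.2 CPM, all above the highest DMSO library at 142.9 and the highest TM 1 h library at 125.8. The log2 fold change over DMSO was 0.81 ± 0.13, or 1.76-fold (edgeR's quasi-likelihood test, adjusted p = 4.3e-06). Of the other complex IV subunits, COX7B reached 0.82 ± 0.25 (adjusted p = 0.038) and COX6A1 0.51 ± 0.13 (adjusted p = 0.0067). COX8A was at 138.9, 170.5 and 145.4 in DMSO and 160.6, 180.6 and 159.8 at TM 4 h (0.12 ± 0.13, adjusted p = 0.71). It was not told apart from DMSO.

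In ATP synthase the 4 members that rose were 2 of 2 F1 head genes tested, 1 of 2 peripheral stalk genes and 1 of 3 c ring genes. ATP5MC2, one of 3 genes that encode the same c ring protein, was at 62.6, 46.6 and 54.3 CPM in DMSO and 93.7, 87.6 and 97.4 at TM 4 h. Its log2 fold change was 0.82 ± 0.17, or 1.77-fold (adjusted p = 7.6e-04), with no overlap. Its paralogs ATP5MC1 (0.54 ± 0.37) and ATP5MC3 (0.12 ± 0.13) did not pass. ATP5F1A was at 185.1, 166.2 and 162.2 in DMSO and 238.6, 228.4 and 243.9 at TM 4 h (0.50 ± 0.12, adjusted p = 0.0028), again with no overlap. ATP5F1B, its partner in the F1 head, gained 0.33 ± 0.09 (adjusted p = 0.020), and ATP5PB 0.38 ± 0.12 (adjusted p = 0.046). The central stalk genes ATP5F1C, ATP5F1D and ATP5F1E lay between 0.20 and 0.27 and did not pass.

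In the remaining complexes the called members were few. In complex III the identifier recorded as UQCRC2, a core protein, gained 0.56 ± 0.17 (adjusted p = 0.034), while all 5 small subunits tested lay above 0, from 0.08 to 0.30, without passing. In complex I, NDUFB4 gained 1.18 ± 0.36 (adjusted p = 0.036) and the identifier recorded as NDUFB9 gained 0.55 ± 0.15 (adjusted p = 0.011). NDUFB4 stood at 11.2, 25.2 and 28.0 CPM at TM 4 h, overlapping DMSO in its lowest library. It passed the filter on low counts only through tunicamycin libraries, with 3, 11 and 13 counts in DMSO. COX7C, ATP5MC2 and ATP5F1A were still called when any 1 of the 6 libraries was left out. COX6A1 lost its call without DMSO replicate 2 or 3 or TM 4 h replicate 2, NDUFB9 without DMSO replicate 3 or TM 4 h replicate 3, and ATP5F1B and UQCRC2 without DMSO replicate 2 or 3 or TM 4 h replicate 3. ATP5PB was called only with DMSO replicates 2 and 3 and TM 4 h replicates 1 and 3 all kept, NDUFB4 was lost without any library other than TM 4 h replicate 1, and COX7B without any other than DMSO replicate 1. With 1 library left out COX6A1 ranged from 0.38 to 0.64, NDUFB9 from 0.42 to 0.65 and ATP5F1B from 0.24 to 0.40. In the same fits UQCRC2 ranged from 0.42 to 0.64, ATP5PB from 0.26 to 0.43, NDUFB4 from 0.90 to 1.35 and COX7B from 0.74 to 0.91. The count of called members was 3 of 38 without DMSO replicate 3, where 178 of all 8017 genes were called. It was 4 of 38 without DMSO replicate 2 (285 of 8000 genes) and 4 of 37 without TM 4 h replicate 3 (247 of 7976 genes). DESeq2 called 2 of 39 members and 151 of 8343 genes. Replicates 1 and 2 lie in one library set and replicate 3 in another. With the set as a block 9 of 39 members and 394 of 8343 genes were called. Within the first set 2 of 31 members and 129 of 7097 genes were, with a median over members of 0.20.

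Between 1 h and 4 h of tunicamycin 10 of 39 members rose and none fell. Over all 8343 genes 467 were higher at 4 h, which is 5.60%, and 500 were lower, which is 5.99%. The median was 0.34 against 0.011 over all genes. COX7C differed by 1.23 ± 0.15, or 2.34-fold (adjusted p = 2.1e-09). COX6A1 went from 110.0, 143.5 and 110.2 CPM at 1 h to 209.6, 250.9 and 191.0 at 4 h, a difference of 0.84 ± 0.14 (adjusted p = 1.9e-05) with no overlap. ATP5MC2 went from 36.7, 39.7 and 52.3 to 93.7, 87.6 and 97.4 (1.01 ± 0.20, adjusted p = 1.2e-04).

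All 9 complex IV subunits tested lay above 0 here, with a median of 0.84, and COX7B was among the 3 that rose (0.90 ± 0.28, adjusted p = 0.025). In complex V 5 of 12 rose: besides ATP5MC2 these were ATP5F1A (0.57 ± 0.13), ATP5PB (0.57 ± 0.13), ATP5F1B (0.30 ± 0.10) and the identifier recorded as ATP5F1E (0.81 ± 0.25), with adjusted p of 9.8e-04, 0.0016, 0.036 and 0.024. ATP5F1E is the epsilon subunit of the central stalk. UQCRC2 (0.54 ± 0.19, adjusted p = 0.044) and NDUFB9 (0.68 ± 0.16, adjusted p = 0.0023) were the called members of complexes III and I. This comparison shares its TM 4 h libraries with the one against DMSO. The calls of COX7C, COX6A1, ATP5MC2 and ATP5PB held without any 1 library. Called without TM 1 h replicate 3 were 4 of 38 members and 523 of 8008 genes. The other 6 all lost the call without that library, and some also without others: UQCRC2 (TM 1 h replicate 2, TM 4 h replicate 1 or 3), ATP5F1B (TM 1 h replicate 2, TM 4 h replicate 3), ATP5F1E (TM 1 h replicate 1, TM 4 h replicate 3) and COX7B (TM 4 h replicate 2). UQCRC2 ranged from 0.29 to 0.63 in these fits. With the library set as a block 9 of 39 members and 925 of 8343 genes were called. Within the set of replicates 1 and 2 it was 3 of 31 members and 488 of 7097 genes, with a median over members of 0.37.

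Under arsenite 4 subunits of complex IV and 4 small subunits of complex III fell, 3 ATP synthase subunits rose and 1 fell, and complex I held one of each. Against PBS 14 of 30 members tested were called, 4 higher and 10 lower. Over all 6642 genes 34.8% were called, 17.6% higher and 17.1% lower. With a filter of at least 50 mean counts 52.5% of all genes and 4 of 7 members were called. The median over members was -0.24, against -0.0013 over all genes, and 20 of 30 lay below 0. The other 28 members did not pass the filter on low counts.

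**Figure D3:**
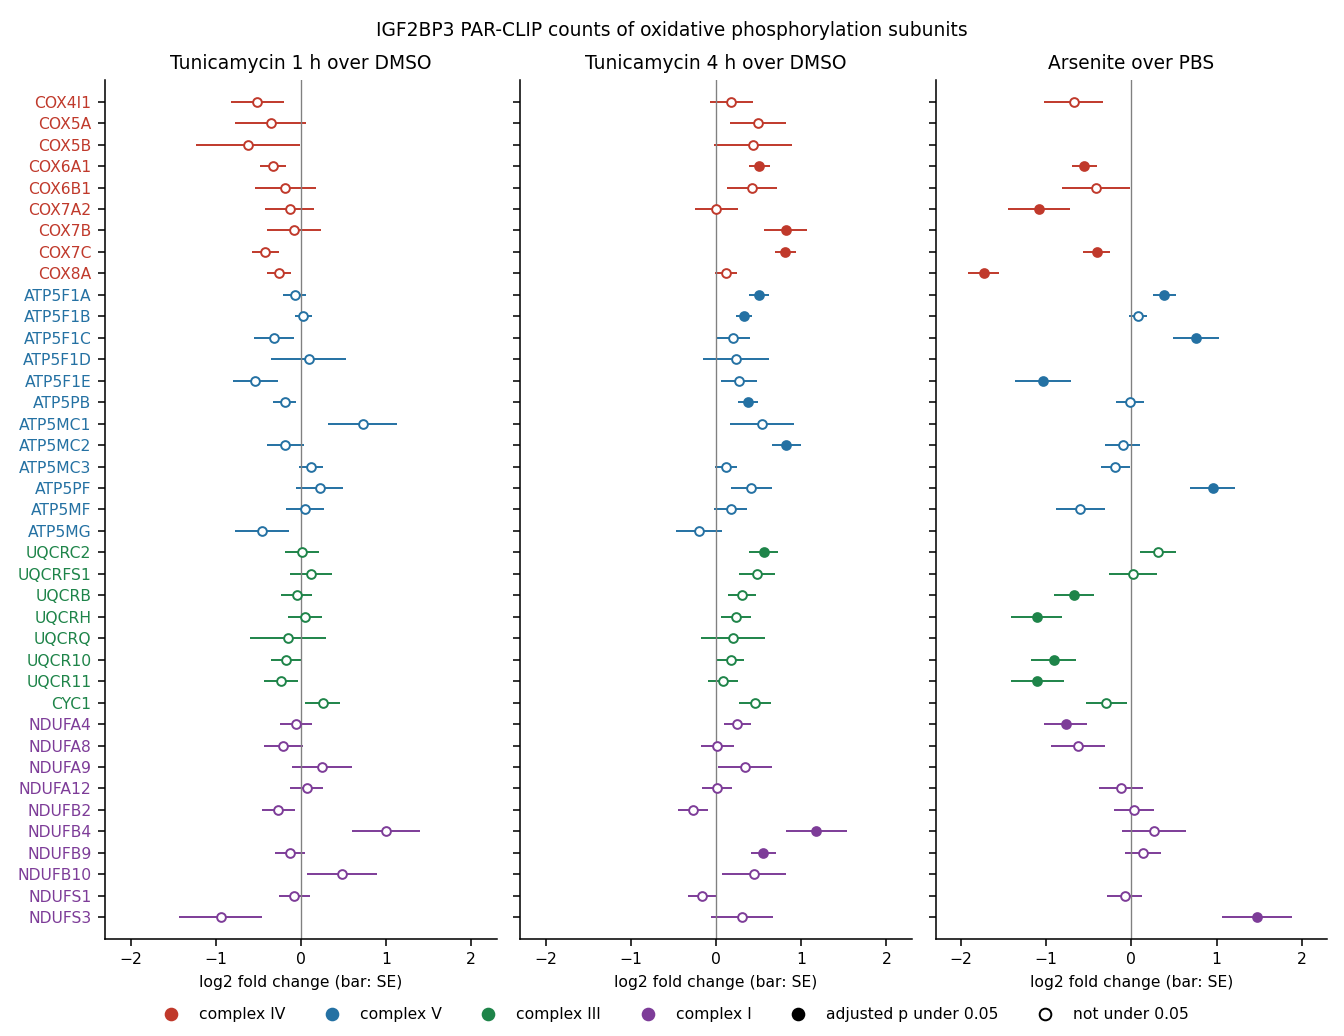
Log2 fold change and SE of each member tested, coloured by complex, at TM 1 h and TM 4 h over DMSO and under arsenite over PBS, with filled points for an adjusted p under 0.05. At TM 4 h 36 of 39 points lie right of 0, and under arsenite the 10 filled points left of 0 are mostly of complexes IV and III.

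All 6 complex IV subunits tested lay below 0, and 4 fell. COX8A was at 239.2, 177.1 and 168.8 CPM in PBS and at 59.1, 61.3 and 59.5 under arsenite, so its highest arsenite library lay well below its lowest PBS library. The log2 fold change was -1.74 ± 0.19, a level 3.33-fold lower (adjusted p = 8.6e-15). COX6A1 was at 226.9, 225.3 and 241.6 in PBS and 197.7, 148.2 and 146.9 under arsenite (-0.56 ± 0.15, adjusted p = 0.0013), without overlap. COX7A2 fell by 1.09 ± 0.36 (adjusted p = 0.012), and lost the call without PBS replicate 3 or arsenite replicate 3, ranging from -1.24 to -0.80. COX7A2 passed the filter on low counts only through the PBS libraries, where it is high, with 15, 4 and 21 counts. Under arsenite it had 9, 12 and 20, in deeper libraries. COX7C was at 229.3, 152.9 and 168.8 in PBS and 164.3, 136.3 and 142.1 under arsenite, which overlap (-0.41 ± 0.16, adjusted p = 0.032), its value was -0.17 without PBS replicate 1, and the call was also lost without arsenite replicate 2 or 3. COX4I1 (-0.68 ± 0.34) and COX6B1 (-0.42 ± 0.40) did not pass. COX5B, which had too few counts to be tested here, went the other way, with 3, 0 and 4 counts in PBS and 8, 14 and 22 under arsenite. In CPM that was 0.0 to 10.4 against 20.5 to 23.9, with no overlap, although the count of 0 in PBS replicate 2 allows up to 23.0 CPM. NDUFA4 is placed with complex I by its name, but RefSeq now names it COXFA4 and it is known as a subunit of complex IV. It went from 96.2, 80.5 and 64.9 to 56.5, 40.9 and 47.0 (-0.77 ± 0.25, adjusted p = 0.011), with no overlap, and at -0.54 was not called without PBS replicate 1.

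In complex III all 4 small subunits tested fell. UQCRH was at 59.2, 40.2 and 83.1 CPM in PBS and 30.8, 39.2 and 25.0 under arsenite (-1.11 ± 0.30, adjusted p = 0.0015), with the highest arsenite library just below the lowest of PBS. UQCR11 was at 59.2, 32.2 and 75.3 in PBS and 15.4, 37.5 and 28.8 under arsenite, which overlap (-1.10 ± 0.31, adjusted p = 0.0025). UQCR10 fell by 0.91 ± 0.26 (adjusted p = 0.0031), though without PBS replicate 1, its highest library, the value was -0.27 (adjusted p = 0.61). The identifier recorded as UQCRB, a ubiquinone-binding subunit, fell by 0.68 ± 0.23 (adjusted p = 0.017). The 3 other members of this complex that were tested did not pass: UQCRC2 was at 74.0, 72.4 and 93.5 in PBS and 97.6, 115.9 and 94.1 under arsenite (0.31 ± 0.21, adjusted p = 0.26), and the electron carriers CYC1 (cytochrome c1) and UQCRFS1 (the Rieske protein) lay at -0.30 ± 0.24 and 0.02 ± 0.28. UQCRH and UQCR11 lost the call without PBS replicate 3, at -0.83 and -0.86, and UQCRB without PBS replicate 1 or 3 or arsenite replicate 3, ranging from -0.81 to -0.51.

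In complex V, 3 of 9 members tested rose and 1 fell. ATP5PF, coupling factor 6 of the peripheral stalk, was at 44.4, 16.1 and 51.9 CPM in PBS and 66.8, 100.5 and 82.5 under arsenite, with no overlap. It rose by 0.96 ± 0.26, or 1.94-fold (adjusted p = 0.0022). ATP5F1C, the gamma subunit of the central stalk, rose by 0.76 ± 0.27 (adjusted p = 0.021) and ATP5F1A by 0.39 ± 0.14 (adjusted p = 0.018). The identifier recorded as ATP5F1E went from 56.7, 56.3 and 46.8 to 12.8, 27.3 and 29.8, again with no overlap, a fall of 1.03 ± 0.33 (adjusted p = 0.0082). ATP5F1E lost the call without PBS replicate 1, at -0.94, ATP5F1A without PBS replicate 1 or 3 or arsenite replicate 2 (range 0.36 to 0.45), and ATP5F1C without PBS replicate 2 or 3 or arsenite replicate 3 (range 0.58 to 1.16). ATP5F1B was not called, with 401.9, 450.7 and 439.0 in PBS and 410.8, 453.2 and 465.5 under arsenite (0.08 ± 0.10, adjusted p = 0.59).

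In complex I, NDUFS3, a core subunit of the peripheral arm, rose. It was at 12.3, 0.0 and 23.4 CPM in PBS and 61.6, 42.6 and 34.6 under arsenite (1.48 ± 0.41, adjusted p = 0.0027). The 0 is a count of 0 in PBS replicate 2, which allows a level of up to 23.0 CPM, for counting error only. NDUFS3 ranged from 1.26 to 2.16 when 1 library was left out and kept its call. It passed the filter on low counts only through the arsenite libraries, where it is high. Its counts there were 24, 25 and 36, against 5, 0 and 9 in PBS. NDUFA8 (-0.63 ± 0.32, adjusted p = 0.11) and the 5 further members tested (-0.12 to 0.26) did not pass. NDUFB4 had 96.6 CPM in PBS replicate 2 against 19.7 and 15.6 in the other PBS libraries. The arsenite calls of COX8A, COX6A1, ATP5PF and NDUFS3 held without any 1 library, and those of the other 10 did not. Called without PBS replicate 1 were 8 of 31 members and 1714 of all 6899 genes. Without PBS replicate 3 it was 8 of 32 members and 1759 of 6981 genes. DESeq2 called 5 of 30 members and 1233 of 6642 genes, so its calls were no more frequent among members than among all genes.

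**Figure D4:**
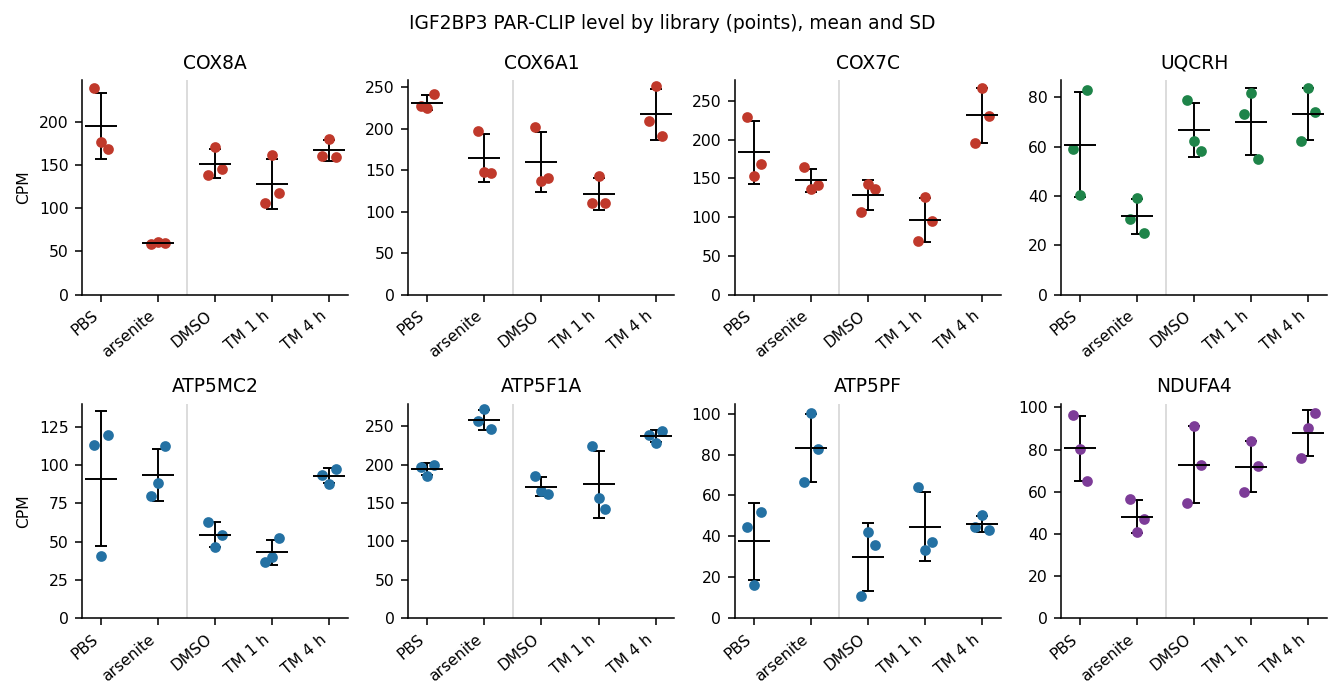
CPM of 8 members in every anti-IGF2BP3 library, with mean and SD. PBS and arsenite are scaled in one fit and DMSO, TM 1 h and TM 4 h in another, divided by the grey line. COX8A, COX6A1, UQCRH and NDUFA4 are lower under arsenite, ATP5PF and ATP5F1A are higher, and COX7C, ATP5MC2 and ATP5F1A are higher at TM 4 h.

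The changes under the 2 stresses were compared in 1 fit of PBS, arsenite, DMSO and TM 4 h. Of 35 members, 10 had an arsenite change below that of 4 h of tunicamycin, past the threshold, and none above it. Over all 7796 genes 9.74% were called lower and 8.57% higher. The median was -0.76 over members against -0.018 over all genes. COX8A had the lowest adjusted p, with an arsenite change 1.86 ± 0.22 log2 units below its TM 4 h change (adjusted p = 3.3e-10). COX7C differed by -1.22 ± 0.20 (adjusted p = 3.1e-06) and COX6A1 by -1.07 ± 0.20 (adjusted p = 3.0e-05), and both had risen at TM 4 h and fallen under arsenite. COX5B, at 1.05 ± 0.75 (adjusted p = 0.36), was the one complex IV member of the 9 in this fit above 0. It passed the filter on low counts only through the arsenite libraries, where it is high, with 8, 14 and 22 counts. Its counts were 3, 0 and 4 in PBS, 5, 6 and 10 in DMSO and 4, 11 and 16 at TM 4 h. ATP5MC2 had risen at TM 4 h alone (-0.93 ± 0.27, adjusted p = 0.0097), and its arsenite value was -0.10 ± 0.20. The other 6, UQCRH, UQCRB, UQCR10, UQCR11, NDUFA4 and ATP5F1E, differed by -0.99 to -1.36, having fallen under arsenite with TM 4 h values between 0.08 and 0.30 that did not pass. All 4 small subunits of complex III tested under arsenite were among them. Without PBS replicate 1 the calls of UQCR10 (-0.43), NDUFA4 (-0.78), ATP5F1E and ATP5MC2 were lost, without PBS replicate 3 those of UQCRH, UQCR11 and ATP5MC2, and without TM 4 h replicate 3 that of ATP5F1E. PBS and arsenite lie in one library set and DMSO and tunicamycin in others, so the library set and the pair of groups cannot be told apart in this difference.

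**Figure D5:**
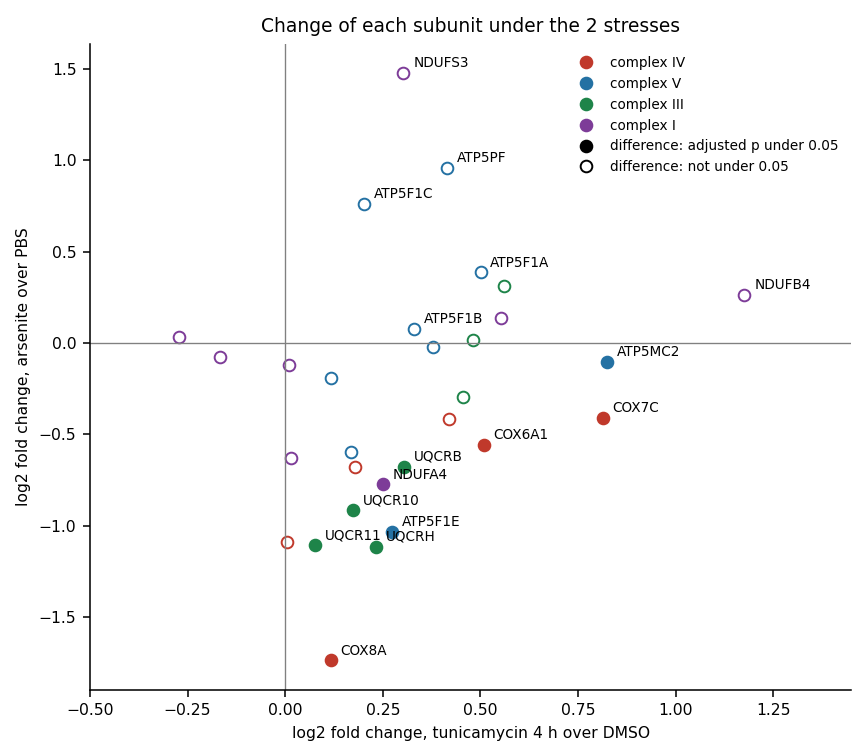
Log2 fold change at TM 4 h over DMSO (horizontal) and under arsenite over PBS (vertical) of the 30 members tested in both, coloured by complex, with filled points where the difference between the changes has an adjusted p under 0.05. Of the 30, 19 lie right of and below 0 and 9 right of and above 0, and the 10 filled points all lie below the horizontal line.

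Against TM 1 h, 4 of 32 members differed, 2 in each direction. Over all 7261 genes 10.7% were called higher and 10.9% lower. COX8A differed by -1.47 ± 0.24 (adjusted p = 4.0e-07) and UQCRH by -1.16 ± 0.36 (adjusted p = 0.011). NDUFS3 differed by 2.43 ± 0.66 (adjusted p = 0.0036) and ATP5F1C by 1.08 ± 0.37 (adjusted p = 0.023). In this fit too NDUFS3 passed the filter on low counts only through the arsenite libraries. It had 4, 14 and 17 counts in DMSO and 1, 5 and 6 at TM 1 h, so its value rests on few counts. UQCRH stood at 73.4, 81.7 and 55.1 CPM at TM 1 h and 79.0, 62.5 and 58.3 in DMSO, which overlap. The call of UQCRH was lost without PBS replicate 3 or arsenite replicate 3, with values of -1.42 to -0.89 over the libraries left out. That of ATP5F1C was lost without PBS replicate 2 or 3, arsenite replicate 3, DMSO replicate 2 or 3 or TM 1 h replicate 2, with values of 0.90 to 1.49.

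Conversions in member clusters were at a higher share in each arsenite library than in any PBS library. Of the T positions counted in member clusters 8.76% ± 0.25 were converted in PBS and 9.61% ± 0.16 under arsenite (SD, n = 3 each). The ranges, 8.51% to 9.01% and 9.50% to 9.79%, did not overlap. Over all clusters the shares were 8.02% ± 0.10 and 8.70% ± 0.10, so the same direction held for the whole libraries. In DMSO, TM 1 h and TM 4 h the member shares were 8.53% ± 0.27, 8.58% ± 0.28 and 8.81% ± 0.52, which overlap. Among the shown regions the pooled share ran from 6.93% in ATP5F1A region 13 and ATP5MC3 region 4 to 11.4% in ATP5F1B region 12. These shares describe clusters that passed the authors' calling and carry no test.

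Other genes of the same pathways were followed by the reads in clusters summed per RefSeq gene, since the count table could not be joined to their symbols. This measure was chosen after the files were seen, and it holds fewer counts. Of all genes tested with it 0.203% were called at TM 4 h and 11.7% under arsenite, and the median of all genes was 0.019 and 0.30. The arsenite calls were uneven, with 249 genes higher and 83 lower of 2839 tested. Members called were 0 of 29 at TM 4 h and 1 of 12 under arsenite, COX8A. Of 13 mRNAs encoded by mitochondrial DNA, 0 passed at TM 4 h (median 0.067) and 2 fell under arsenite (median -0.61): ND2 (-1.01 ± 0.21, adjusted p = 0.021) and ND4 (-0.89 ± 0.19, adjusted p = 0.022), both complex I core subunits. These are made in the mitochondrial matrix.

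The other nuclear subunits had 7 genes tested at TM 4 h, none called, and 6 under arsenite, of which ATP5MJ, a small accessory subunit of ATP synthase, fell (-2.38 ± 0.64, adjusted p = 0.044). Among assembly factors (20 tested at TM 4 h and 9 under arsenite), citric acid cycle enzymes (8 and 4) and mitochondrial ribosomal proteins of the large (20 and 13) and small (11 and 7) subunits none was called in either. Of the regulators of these genes, 9 and 4 tested, PPRC1, a coactivator of the PGC-1 family, rose under arsenite (1.21 ± 0.31, adjusted p = 0.038). Cytosolic ribosomal protein genes had a median of 0.55 at TM 4 h, with 61 of 64 above 0 and 0 called, and of -0.53 under arsenite, with 4 of 49 called lower, RPL23A (-1.50 ± 0.26) and RPL39 (-1.84 ± 0.36) having the lowest adjusted p.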

How the data were processed

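The authors deposited a table of raw read counts per gene, 1 column per library, and lists of clusters per library with read counts and counts of conversion events. Per the submitters' processing notes the tools included UMI-tools 1.1.1, Bowtie 0.12.7 and featureCounts 2.0.1 with GRCh38.p13 and hg38. How reads shared by paralogs or overlapping genes were counted is not given in the sources used here, so such genes are uncertain. edgeR 4.0.16, run in R 4.3.3, tested the counts (filterByExpr, TMM factors, quasi-likelihood test, two-sided, Benjamini-Hochberg over all genes, threshold 0.05), with DESeq2 1.42.0 as an alternative. The 9 DMSO and tunicamycin libraries shared 1 fit and the 6 PBS and arsenite libraries another. SE is the log2 fold change divided by the square root of F. On simulated counts the test recovered 72.5% to 84.5% of 200 genes changed 2-fold in the comparisons within 1 stress. For the arsenite change minus the TM 4 h and TM 1 h changes it recovered 48.5% and 52.5%. False calls numbered 4 to 11, and 0 where no gene was changed. All 15 replicate pairs differed by more than sampling noise. All members were accounted for, and those with an adjusted p under 0.05 were named, with values per library for the lowest adjusted p per comparison or complex. Members and lists were chosen with earlier results of these data known. RNase amounts varied, without saying in which library. Symbols come from identifiers recorded by hand, and sequences from the deposited clusters. One recurrent region is not reported here.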

Additional observations from a re-analysis of the deposited data

Results flagged for a closer look

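The change under arsenite differed from the change at TM 4 h, in the fit of both contrasts with edgeR's quasi-likelihood test, for 10 of 35 members. Of all 7796 genes 9.74% were called lower and 8.57% higher. The log2 differences were -1.86 for COX8A, -1.22 for COX7C, -1.07 for COX6A1, -1.36 for UQCRH, -0.99 for UQCRB, -1.09 for UQCR10, -1.03 for NDUFA4, -1.19 for UQCR11, -1.32 for ATP5F1E and -0.93 for ATP5MC2. The change under arsenite differed from the change at TM 1 h for 4 of 32 members: COX8A (-1.47), NDUFS3 (2.43), UQCRH (-1.16) and ATP5F1C (1.08). Of all 7261 genes 10.7% were called higher and 10.9% lower, so calls were no more frequent among members than among all genes. NDUFS3 passed the filter on low counts only through the arsenite libraries. Groups of 3 libraries were not tested for libraries that stand apart.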

How the results depend on the processing

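Counts of called members were sensitive to the test and to single libraries. Of 747 log2 fold changes of called members under the alternatives, 582 kept the call, 164 lost it without reversing and 1 reversed. The alternatives refit the same libraries for members already called, so few reversals say little. Directions of other members were not compared. With reads in clusters set aside, calls that held in every alternative were 1 of 10 for TM 4 h over DMSO. They were 3 of 10 for TM 4 h over TM 1 h, 4 of 14 for arsenite and 0 of 1 against IgG. For the arsenite change minus the TM 4 h and TM 1 h changes they were 4 of 10 and 1 of 4. Other scalings (DESeq2 size factors, library totals) kept the same counts of 0, 10, 10 and 14 for TM 1 h, TM 4 h over DMSO, TM 4 h over TM 1 h and arsenite. DESeq2 called 2, 6 and 5 of the last 3, and 1 for the arsenite change minus the TM 1 h change (4 in edgeR). Over all genes DESeq2 called 151, 502, 1233 and 908 in that order, against 426, 967, 2310 and 1570 in edgeR. For TM 4 h over DMSO the count was 5 of 58 with no filter on low counts, where 368 of 17746 genes were called. It was 2 with replicates 1 and 2 only, and 3 to 10 without each library in turn. For TM 4 h over TM 1 h it was 3 with replicates 1 and 2 only and 4 to 9 without each library. For arsenite it was 4 with at least 50 mean counts and 8 to 14 without each library. For the arsenite change minus the TM 4 h change it was 6 to 12 without each library. Without PBS replicate 1 it was 6 of 38 members and 1075 of 8384 genes. For the arsenite change minus the TM 1 h change it was 2 of 9 members with at least 50 mean counts (1097 of 3087 genes). It was 2 of 34 with replicates 1 and 2 only (1098 of 7407 genes) and 3 to 5 without each library. Against IgG it was 0 with TMM, 0 with at least 50 mean counts and 0 to 1 without each IgG library, with 0 without that of DMSO. With reads in clusters it was 0, 0, 1, 1 and 0 for TM 4 h over DMSO, TM 4 h over TM 1 h, arsenite and the arsenite change minus the TM 4 h and TM 1 h changes, and UQCRB reversed to 5.02 for the change minus TM 4 h. Clusters give fewer genes tested; the cause of the other shifts was not tested. The conversion difference of arsenite minus PBS was 0.850 percentage points, 1.07 with clusters of at least 10 reads and 0.722 to 0.972 without each library, that of TM 4 h minus DMSO 0.017 to 0.536, and that of TM 1 h minus DMSO -0.102 to 0.185. Same-numbered libraries did not deviate together (correlations of -0.078 to 0.065). Sampling noise in each library can hide a shared deviation, so this cannot exclude a pairing, and the labels do not state one. With the replicate block the counts were 0, 8, 9 and 13, and 10 and 4 for the differences between changes. Depth limits the 19 members with under 100 counts.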
